A study of Mus musculus with 12 samples.

Results

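The genes described here are the Myc network and the Raf kinases of the mouse: the Myc family members Myc, Mycn and Mycl, their partner Max, the Max-binding repressors Mxd1, Mxi1 and Mnt, and the kinases Araf and Braf. They were listed by name, and each probe was traced to a gene through the transcript accession in its identifier. Of the 9 genes listed, 8 had probes that could be matched, and Braf is not analysed here. Each of the 8 genes was measured by 3 probes, which makes 24 of the 72000 probes and 8 of the 17277 genes with a symbol.

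Myc proteins are basic helix-loop-helix leucine zipper transcription factors that bind DNA at E-box sites as dimers with Max, and they promote the expression of genes for growth and division. Mxd and Mnt proteins compete for Max and recruit corepressors to the same sites. Raf kinases receive the signal of active Ras and start the kinase cascade through Mek to Erk. In neuroblastoma Mycn is the best known oncogene of the family, and myc and raf act together in retroviruses used to immortalize cells.

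The study measured mRNA under basal conditions in cell lines that are used to study receptors. The mouse samples were 12 arrays of 3 immortalized lines without any treatment, grown in the same medium with serum, with 4 plates of cells per line, each extracted separately. AtT20 is a line from a mouse pituitary tumor, BV2 is a microglial line made with a retrovirus that carries raf and myc, and N18 is a line from a mouse neuroblastoma. Each line is a single tumor or immortalized line, so that plates measure the spread within a line and not that between animals. The study extracted RNA at confluence and kept BV2 under conditions meant to favour a resting, non-activated state. The labels give the cell type of all 3 lines as normal.

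The level of a gene is given as log2 relative to the mean of 10 seminal proteins on the same plate, which serves as zero expression. The threshold of a line was 2 SD of those proteins, averaged over its 4 plates, and a gene whose mean level was higher than that was called above it. It was 0.37 in AtT20, 0.56 in BV2 and 0.74 in N18. Differences between lines are log2 differences after quantile normalization, tested with limma and with the Benjamini-Hochberg adjustment over 25128 features. Arrays read the bulk RNA of a plate, in which fewer expressing cells and less RNA per cell cannot be told apart. Of 9 microglia markers, 7 were above the threshold in BV2, 2 in N18 and 0 in AtT20. The markers Aif1 (0.30) and Cx3cr1 (0.40) were below it in BV2. Of 14 neuroblastoma and neuron markers 13 were above it in N18, 7 in BV2 and 8 in AtT20. Among all genes with a symbol, 58.6% were above it in N18, 56.0% in BV2 and 36.9% in AtT20. Of 8 corticotroph markers 2 were above it on the plates labelled AtT20, and the defining genes Pomc (0.29), Tbx19 (0.02) and Pcsk1 (0.14) were below it there. The arrays labelled AtT20 also held a narrower range of values, with an interquartile range of 0.38 to 0.78 (log2) against 1.28 to 1.73 in BV2 and 1.91 to 2.21 in N18. Of the genes with 3 probes that were above the threshold, 42.8% had at most 1 probe above it in AtT20, against 15.4% in BV2 and 11.6% in N18. The part of these features of the AtT20 arrays in the differences from AtT20 was not tested.

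Promoter windows of 250 bases before to 50 bases after the start site were taken from RefSeq (assembly GRCm38.p6) for 7 of the 8 genes, all but Myc. They were searched for the canonical E-box CACGTG, which reads the same on both strands. It was found in the windows of Max and Mnt, and in 2187 of the 27025 genes with a window (8.09%). The sites are shown because they are the element that Myc-Max and Mnt-Max dimers bind, with the motif in capitals and 12 bases on each side. The Mnt site lies at chr11:74830789-74830818 on the plus strand and starts 123 bases before the start site. The Max site lies at chr12:76962234-76962263 on the minus strand and starts 3 bases before it.
Mnt: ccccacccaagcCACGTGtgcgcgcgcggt
Max: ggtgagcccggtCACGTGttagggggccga

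N18 and AtT20 each had mRNA above the threshold for 7 of the 8 genes, and BV2 for 5. Over all 17277 genes with a symbol, 58.6% were above the threshold in N18, 36.9% in AtT20 and 56.0% in BV2. Max, Mxd1, Mxi1, Mnt and Araf were above it in all 3 lines, and Mycl in none. In AtT20 several of these calls hung on the rule. There Mxd1 had 1 of 3 probes above the threshold and lost its call under 4 of 10 alternatives, which were the median of the probes, olfactory receptor genes as controls, a threshold of 3 SD and a rule that every plate must pass. Mxi1 lost it in AtT20 with the median of the probes (0.23), and Max with olfactory receptor genes as controls. Myc and Mycn were above it in N18 and AtT20 and below it in BV2, the line made with the myc retrovirus. Whether the probes for mouse Myc bind the retroviral copy was not tested.

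**Figure D1:**
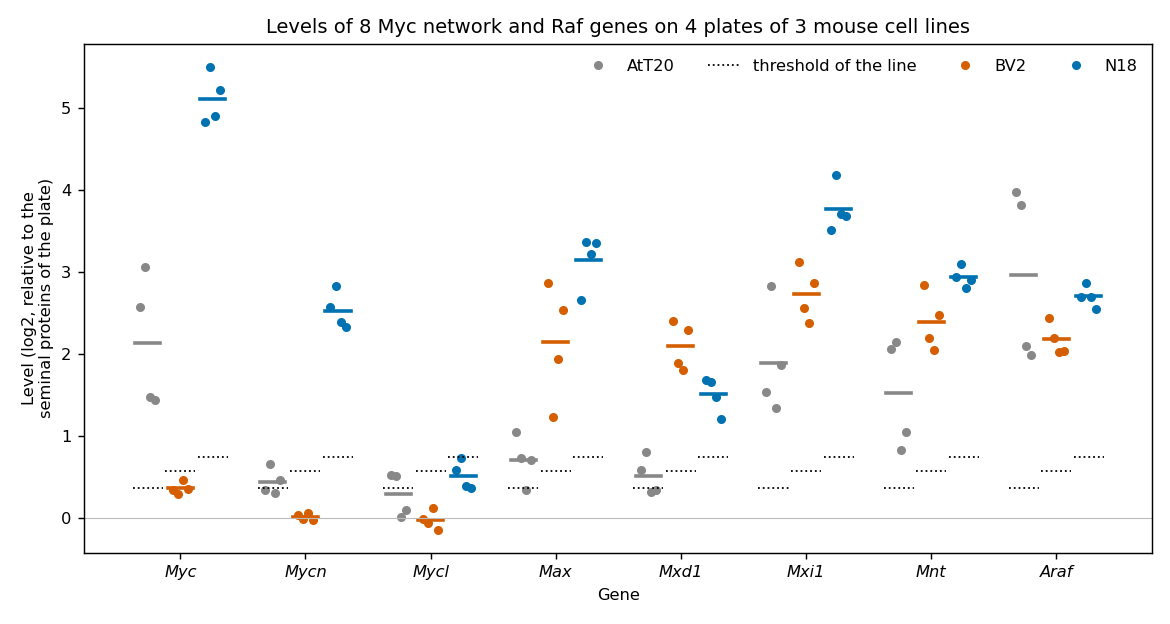
Levels of the 8 genes (log2 relative to the seminal proteins of the plate) in AtT20 (grey), BV2 (orange) and N18 (blue), with 1 point per plate, a bar for the mean of 4 plates and a dotted line for the threshold of that line. Myc and Mycn were high in N18 and below the threshold in BV2, and the AtT20 plates were spread widely for Myc and Araf.

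Myc, the founding member of the family, showed the widest separation between N18 and BV2 of the 8 genes. In N18 it read 4.83, 5.50, 4.90 and 5.22, in BV2 0.33, 0.29, 0.46 and 0.35, and in AtT20 2.58, 3.06, 1.48 and 1.44. The 3 lines did not overlap, N18 being the highest on every plate and BV2 the lowest. After quantile normalization Myc was 4.07 ± 0.16 (SE, n = 4 plates per line) higher in N18 than in BV2 (limma, adjusted p = 5.09e-12). Since BV2 lay below its threshold, this was a fold of at least 14.9. AtT20 stood between, with Myc 2.63 ± 0.16 lower in BV2 (adjusted p = 5.08e-10), at least 2.9-fold, and 1.45 ± 0.16 higher in N18 (adjusted p = 5.83e-07). The difference between BV2 and AtT20 rested on probe 1 (-4.23 ± 0.18), since probes 2 (-0.32, adjusted p = 0.140) and 3 (-0.27, adjusted p = 0.308) did not pass.

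The separate probes of Myc told the lines apart in different ways. In N18 all 3 probes were high, with plate levels of 4.58 to 5.03 for probe 1, 4.93 to 5.72 for probe 2 and 4.86 to 5.65 for probe 3. On the AtT20 plates probe 1 read 2.55 to 4.48, while probe 2 read 0.09 to 0.62 and probe 3 from -0.24 to 0.12. The Myc level of AtT20 thus rested on 1 probe of 3. In BV2 probe 1 stayed at 0.03 to 0.10 and probe 3 at -0.05 to 0.14, and probe 2 alone passed the threshold at 0.73 to 1.02. Each of the 3 probes was higher in N18 than in BV2, by 3.88 ± 0.18, 3.84 ± 0.18 and 4.52 ± 0.22 (SE; limma over all probes, adjusted p at most 9.57e-11).

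Mycn, the neural member of the family, was also highest in N18. Its levels were 2.57, 2.82, 2.38 and 2.33 in N18, 0.34, 0.65, 0.30 and 0.46 in AtT20, and 0.03, -0.02, 0.06 and -0.03 in BV2. On this scale all 4 N18 plates lay above all others, and all 3 probes shared this, the lowest probe level in N18 being 1.75 and the highest probe level in the other lines 0.93. After quantile normalization probe 2 did not pass between N18 and AtT20 (-0.07 ± 0.16, limma adjusted p = 0.723), while probes 1 and 3 were higher in N18. Mycn was 1.69 ± 0.10 higher in N18 than in BV2 (limma, adjusted p = 5.73e-10), a fold of at least 2.2 with BV2 below its threshold. AtT20 passed its threshold narrowly, with a mean of 0.44 against 0.37, through 1 probe of 3 and on 3 of 4 plates. It fell below with olfactory receptor genes as controls, with a threshold of 3 SD, and when every plate had to pass.

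Mycl, the third member, which was first described in lung cancer, was below the threshold in each line. Its levels were 0.58, 0.72, 0.38 and 0.36 in N18, 0.52, 0.51, 0.01 and 0.10 in AtT20, and ranged from -0.15 to 0.12 in BV2. Probe 3 read 0.90 to 1.27 in N18 and at most 0.23 elsewhere, and the other probes of N18 read at most 0.67. In AtT20 probe 1 was above the threshold with a mean of 0.56, through 0.93 and 1.09 on plates 1 and 2. The gene did not pass the test between N18 and BV2 (0.29, 95% interval -0.08 to 0.67, adjusted p = 0.204), although probe 3 by itself was 0.58 ± 0.14 higher in N18 (limma over all probes, adjusted p = 0.00603). After quantile normalization the N18 plates of the gene all lay above its BV2 plates. The interval also carries the spread of AtT20, with an SD of 0.50 against 0.13 in BV2 and 0.09 in N18.

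**Figure D2:**
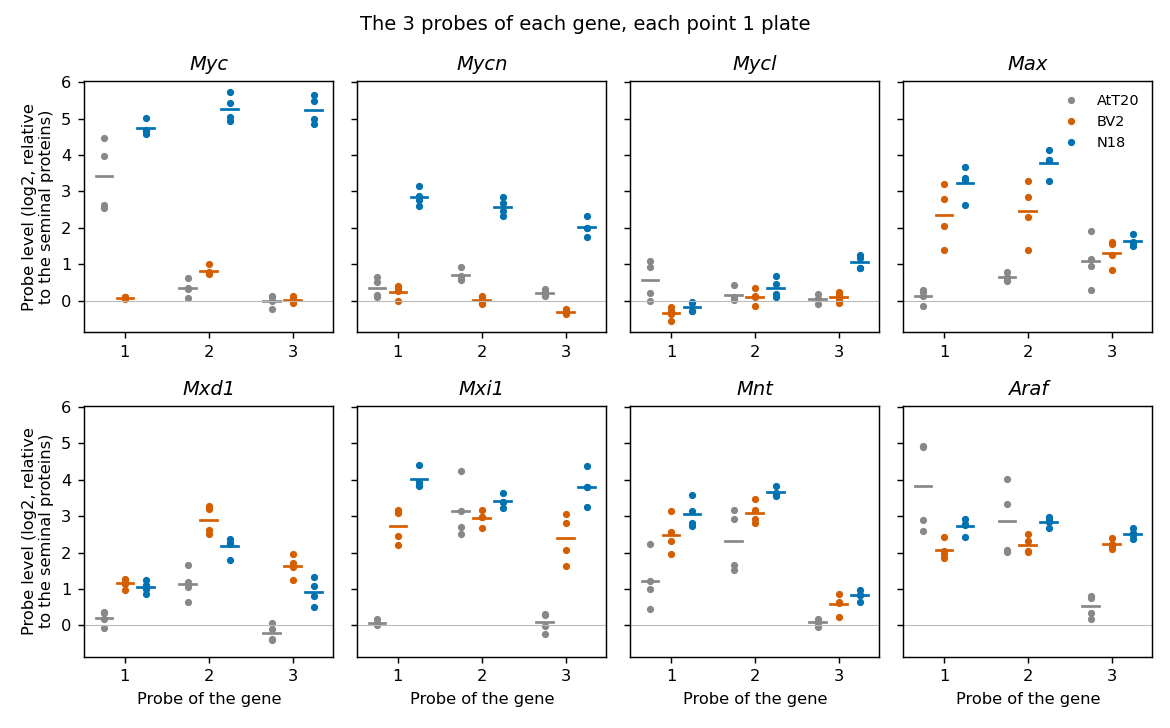
Level of each of the 3 probes of the 8 genes (log2 relative to the seminal proteins), with 1 point per plate and a bar for the mean of the line. All 3 probes of Myc and Mycn were high in N18, whereas in AtT20 Myc stood on probe 1 and Mxi1 on probe 2.

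Max, the partner that every Myc and Mxd protein needs to bind DNA, was present in all 3 lines. Its levels were 2.66, 3.36, 3.22 and 3.35 in N18, 2.86, 1.23, 1.93 and 2.53 in BV2, and 1.04, 0.73, 0.33 and 0.71 in AtT20. N18 and BV2 overlapped, and BV2 plate 2 was the lowest of its line in probes 1, 2 and 3. Max did not pass the test between N18 and BV2 (0.38, 95% interval -0.04 to 0.80, adjusted p = 0.145). Without N18 plate 1 the difference was 0.53 and passed (adjusted p = 0.0473), and it passed without normalization (0.98) and relative to the seminal proteins (1.01). Over all 22 alternatives its adjusted p ran from 8.34e-05 to 0.485. Max was 0.62 ± 0.20 higher in N18 than in AtT20 (adjusted p = 0.00959), and the difference of BV2 from AtT20, 0.25 with an interval of -0.18 to 0.67, did not pass.

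Mxd1, a repressor that rises when cells leave the cycle and differentiate, was the only one of the 8 genes that was lower in N18 than in BV2. Its levels were 2.40, 1.89, 1.80 and 2.29 in BV2, 1.68, 1.66, 1.47 and 1.20 in N18, and 0.58, 0.80, 0.31 and 0.34 in AtT20. On this scale the lines did not overlap. After quantile normalization they did not overlap either, but N18 (mean 10.96) then lay below AtT20 (11.38). In N18 Mxd1 was 0.95 ± 0.12 below BV2 (limma, adjusted p = 7.17e-06), and the direction and the call held without normalization (-0.62) and relative to the seminal proteins (-0.59). Probes 2 and 3 carried the difference (-1.22 ± 0.15 and -0.90 ± 0.22), and probe 1 did not pass (-0.40 ± 0.20, adjusted p = 0.165). Thus Myc and Mycn were higher in N18, and Mxd1 was higher in BV2. The other repressors listed, Mxi1 (0.39) and Mnt (-0.07), did not pass between N18 and BV2.

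Mxi1, another repressor of the Mxd family, was above the threshold in all 3 lines. It measured 3.51, 4.19, 3.70 and 3.68 in N18, 3.12, 2.56, 2.38 and 2.86 in BV2, and 1.54, 2.82, 1.33 and 1.87 in AtT20. On this scale the N18 plates lay above the BV2 plates, and after quantile normalization they overlapped. The difference was 0.39 (95% interval 0.03 to 0.75), with an adjusted p of 0.0796 in limma. It passed under 7 of 22 alternatives, among them no normalization (1.01) and leaving out AtT20 plate 1 (0.38, adjusted p = 0.0155), and its adjusted p ran from 6.74e-05 to 0.194 over them. In AtT20 probe 2 read 2.50 to 4.24 while probes 1 and 3 read -0.24 to 0.32, and in N18 and BV2 all 3 probes were at 1.63 or more.

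Mnt, a repressor of the network that is found in most cells, did not differ detectably between N18 and BV2. Its levels were 2.93, 3.10, 2.81 and 2.91 in N18, 2.84, 2.19, 2.05 and 2.47 in BV2, and 2.05, 2.14, 0.83 and 1.04 in AtT20. The difference of N18 from BV2 was -0.07 with a 95% interval of -0.36 to 0.22 (limma, adjusted p = 0.720), and its sign turned without normalization (0.52) and relative to the seminal proteins (0.55), where it did not pass either. Its probe 3 was near the threshold in N18 (0.64 to 0.98) and BV2 (0.22 to 0.86), and below it in AtT20 (-0.03 to 0.19).

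Araf, the Raf kinase on the X chromosome, was above the threshold on every plate. Its levels were 2.70, 2.87, 2.70 and 2.54 in N18, 2.44, 2.20, 2.03 and 2.03 in BV2, and 3.98, 3.81, 2.09 and 1.98 in AtT20. On this scale AtT20 plates 1 and 2 stood above all others and plates 3 and 4 lay near BV2. AtT20 thus overlapped BV2 there and was spread on both sides of N18. After quantile normalization it overlapped neither, its lowest plate being 13.21 and the highest plates of BV2 and N18 12.31 and 12.01. Between N18 and BV2 the difference was -0.11 (95% interval -0.53 to 0.30, limma adjusted p = 0.679), with the sign turned without normalization (0.50) and relative to the seminal proteins (0.53), where it did not pass either. Each of the 3 probes of Araf likewise did not pass between these lines.

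Ksr1, a scaffold that holds Raf, Mek and Erk together, was 0.51 ± 0.15 lower in N18 than in BV2 (limma, adjusted p = 0.0107), and did not pass without normalization (-0.28) or relative to the seminal proteins (-0.25).

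Between N18 and BV2, then, 2 of the 8 genes were higher in N18, Myc and Mycn, and 1 was lower, Mxd1. Over all 25128 features, 19.0% were higher and 21.9% lower. Without normalization and relative to the seminal proteins 5 were higher and 1 was lower, since Mycl, Max and Mxi1 then passed as well. These scalings also turned the split of all features, from 4775 higher and 5495 lower after quantile normalization to 7714 and 1905 without it and to 9754 and 3296 relative to the seminal proteins. The median difference of all features was -0.06, 0.15 and 0.18 in these 3 scalings. The rise of Myc by 4.07, 4.72 and 4.75 and of Mycn by 1.69, 2.48 and 2.51 was larger than that shift in each of them.

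By single probes, 8 of the 24 were higher in N18 than in BV2 (all probes 14.5%) and 2 were lower (13.2%). The 8 were the 3 probes of Myc, the 3 of Mycn, probe 3 of Mycl and probe 1 of Mxi1, and the 2 were probes 2 and 3 of Mxd1. The calls of the genes Myc, Mycn and Mxd1 thus each rested on at least 2 of 3 probes.

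**Figure D3:**
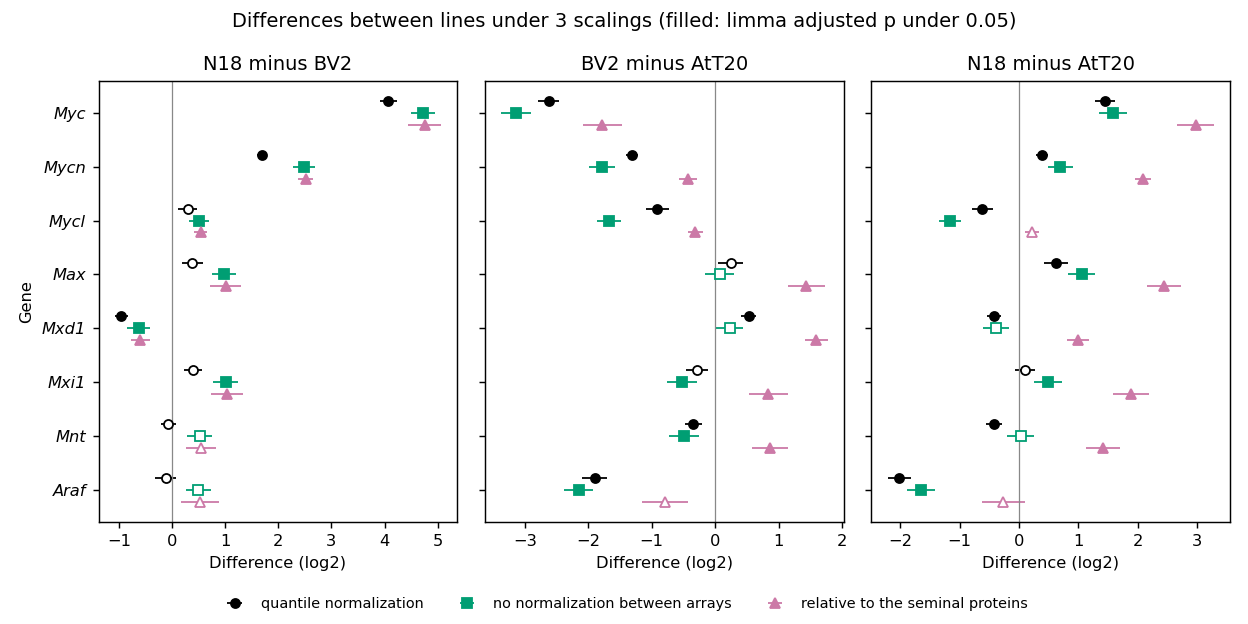
Differences between lines (log2, with SE) for the 8 genes under quantile normalization (circles), without normalization (squares) and relative to the seminal proteins (triangles), filled where the limma adjusted p was under 0.05. Between N18 and BV2, Myc, Mycn and Mxd1 kept their call in all 3 scalings, and only Mnt and Araf changed sides of zero. Mycl, Mxd1, Mxi1 and Mnt changed sides in 1 or both of the comparisons with AtT20.

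In the comparisons with AtT20, which share the AtT20 plates, the calls leaned on the scaling. BV2 was higher than AtT20 in 1 of the 8 genes, Mxd1 (0.53 ± 0.12, limma adjusted p = 0.000902), against 26.6% of all features. It was lower in 5, against 47.0%, namely Myc, Mycn (-1.31 ± 0.10), Mycl (-0.91 ± 0.18), Mnt (-0.35 ± 0.14) and Araf (-1.90 ± 0.20). The split was 0 higher and 6 lower without normalization, and 4 higher and 3 lower relative to the seminal proteins, where Mnt turned to 0.87, Mxi1 from -0.29 to 0.84, and Araf no longer passed (-0.79, adjusted p = 0.0604). The call of Mnt was lost without AtT20 plate 1 or 2 or BV2 plate 3 or 4 (adjusted p of 0.0790 to 0.0965), Mxi1 passed without AtT20 plate 1 (-0.41, adjusted p = 0.00878), and Max without BV2 plate 2 (0.43, adjusted p = 0.0439). Only Myc, Mycn and Mycl were lower in BV2, with the call, in all 3 scalings. All 3 were below the threshold in BV2, Mycl in AtT20 too, and for Mycn no lower bound of the fold above 1 held in all 3 scalings, so that no fold is given for Mycn or Mycl.

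N18 was higher than AtT20 in 3 of the 8 genes, against 27.8% of all features. They were Myc, Max and Mycn (0.38 ± 0.10, limma adjusted p = 0.00229), and these 3 were higher with the call in all 3 scalings. It was lower in 4, against 48.6%, namely Mycl (-0.62 ± 0.18), Mxd1 (-0.43 ± 0.12), Mnt (-0.42 ± 0.14) and Araf (-2.02 ± 0.20). None of these 4 was lower with the call in all 3 scalings. Without normalization the split was 4 higher and 2 lower, and relative to the seminal proteins 6 higher and 0 lower, with Mxd1 at 1.00, Mnt at 1.42 and Mycl at 0.22. The median of all features was -0.25, -0.85 and 0.54 in the 3 scalings, and for BV2 minus AtT20 it was -0.23, -1.08 and 0.28.

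The probes of a gene also split in these comparisons. In BV2 5 of the 24 probes were higher than in AtT20 (all probes 27.7%) and 11 lower (34.8%), and in N18 9 were higher (29.8%) and 8 lower (36.0%). Mxi1 was higher by probes 1 and 3 and lower by probe 2 in both lines, and Max was higher by probe 1 and lower by probe 3. Araf was lower by probes 1 and 2 in both lines. Its probe 3 was higher in BV2 (0.57 ± 0.21, limma over all probes, adjusted p = 0.0240) and did not pass in N18 (0.25 ± 0.21). In N18 Mxd1 was lower by probe 2 (-0.89 ± 0.15) and higher by probe 3 (0.69 ± 0.22). The gene value of Mxi1 in BV2 minus AtT20 turned from -0.29 to 0.75 when the log2 values of the probes were averaged and to 1.59 with their median. Against AtT20, probes 2 and 3 of Myc were higher in N18 and probe 1 did not pass.

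Genes with the pattern most like Myc and Mycn over the 12 arrays were sought among 12171 genes. For Myc they were Tubb3, a tubulin of neurons (r = 0.993), the basement membrane collagen Col4a1 (0.991) and Asap1 (0.990). For Mycn they were the spectrin Sptbn1 (0.996), Schip1 (0.995) and the calponin Cnn3 (0.995). Tubb3 had a mean level of 4.58 in N18, 2.02 in AtT20 and 0.83 in BV2, the order seen for Myc. These are descriptions over arrays that fall in 3 lines and share the line, the plate and the scaling.

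The list of 11 other genes of the Max and Mlx network also holds Tfap4, Usf1 and Usf2, E-box factors outside the network proper. Of the 11 genes, 9 were above the threshold in AtT20, 9 in BV2 and 8 in N18 (36.9%, 56.0% and 58.6% of all genes). Between N18 and BV2, 1 was higher and 5 lower (19.0% and 21.9% of all features), with a median of -0.28 against -0.06 for all features. The split was 2 and 1 without normalization and 4 and 1 relative to the seminal proteins. Mlx, the Max-like partner of the glucose sensors, was 0.31 ± 0.12 higher in N18 (limma, adjusted p = 0.0452) and passed in all 3 scalings (0.92 and 0.95 in the others). Mycs, a Myc-like gene of rodents without introns, was lower in N18 by quantile normalization (-0.60 ± 0.17) and in both others (-0.55 and -0.52). Its plates read 0.97, 0.67, 0.80 and 0.84 in BV2 and 0.31, 0.21, 0.26 and 0.42 in N18, which was below the threshold, and the lower bound of the fold was 1.

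The other calls of this group moved with the scaling. Usf2, an E-box factor outside the Max network proper, was lower in N18 (-1.16 ± 0.11), yet did not pass in the others (-0.50 and -0.47). Tfap4 (-0.53), Mlxipl (-0.44) and Mlxip (-0.29) were lower after quantile normalization, and turned to between 0.02 and 0.12 in the others. Mxd3 (0.15), Mxd4 (-0.12), Mga (-0.28), Bmyc (0.02) and Usf1 (0.01) did not pass after quantile normalization.

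Among 26 genes of the Raf pathway, from Ras proteins to Erk and its inhibitors, 24 were above the threshold in N18, 20 in BV2 and 14 in AtT20, where 58.6%, 56.0% and 36.9% of all genes were. In N18 16 were higher than in BV2 and 4 lower (19.0% and 21.9% of all features), with a median difference of 0.55 against -0.06. The split was 20 and 1 without normalization and 18 and 0 relative to the seminal proteins. The largest rises were in feedback inhibitors of the pathway, Spry1 (3.23 ± 0.10), Spred2 (2.30 ± 0.14) and Spry4 (1.89 ± 0.15), and each passed in all 3 scalings. Spry1 read 4.28, 4.66, 4.10 and 4.27 in N18 and 0.51, 0.18, 0.26 and 0.35 in BV2, below its threshold, a fold of at least 8. Ksr1 and Map2k1 were among the 4 that were lower, and Map2k1, which encodes Mek1, turned from -0.56 to 0.02 and 0.05 in the other scalings.

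Of 19 cofactors and turnover factors of Myc, all were above the threshold in N18 and BV2 and 14 in AtT20, beside 58.6%, 56.0% and 36.9% of all genes. In N18 10 were higher and 5 lower than in BV2, where 19.0% and 21.9% of all features were, and the median was 0.35 against -0.06. The split was 11 and 2 in both other scalings. The histone deacetylase Hdac2 (2.06 ± 0.13), the kinase Gsk3b (1.25 ± 0.16), which marks Myc for degradation, and the Myc-binding adaptor Bin1 (1.19 ± 0.11) were higher, and each passed in all 3 scalings. The acetyltransferase Kat5 (-1.31 ± 0.15) and the kinase Pim1 (-1.16 ± 0.19) were lower in all 3 scalings, and Sin3b, a corepressor scaffold that Mxd proteins bind, was lower after quantile normalization (-0.67 ± 0.15) and did not pass in the others (-0.45 and -0.42).

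Of 35 genes known to be induced by Myc, 33 were above the threshold in N18, 33 in BV2 and 21 in AtT20, against 58.6%, 56.0% and 36.9% of all genes. In N18, where Myc and Mycn were high, 4 were higher than in BV2 and 14 lower after quantile normalization (19.0% and 21.9% of all features), with a median of -0.23 against -0.06 for all features. The split turned to 10 higher and 4 lower without normalization, with a median of 0.29 against 0.15, and to 10 and 3 relative to the seminal proteins, with a median of 0.32 against 0.18. The direction of this group therefore depended on the scaling. The telomerase gene Tert (1.05 ± 0.10), the translation factor Eif4e (0.70 ± 0.09) and the replication helicase subunit Mcm4 (0.44 ± 0.13) were higher in N18 in all 3 scalings. The cyclin Ccnd2 (-2.36 ± 0.12), the DNA repair enzyme Apex1 (-1.76 ± 0.11) and the transferrin receptor Tfrc (-1.32 ± 0.13) were lower in all 3.

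Tert, Eif4e and Ccnd2 were each below the threshold in N18 or BV2. Tert read 1.88, 1.96, 1.37 and 1.31 in N18 and -0.13 to 0.05 in BV2, below its threshold, a fold of at least 1.4. Ccnd2 read 2.92, 2.36, 2.23 and 2.70 in BV2 and -0.18 to 0.22 in N18, a fold of at least 3.5 in favour of BV2. Eif4e read 0.69, 1.25, 0.73 and 0.73 in N18 and -0.44 to -0.12 in BV2. It passed the threshold on 2 of the 4 N18 plates, and no lower bound of its fold above 1 held in all 3 scalings. The E-box CACGTG was in the promoter windows of 10 of the 29 induced genes with a window (34.48%), 3 of the 9 other network genes, 2 of 17 cofactors, 1 of 18 Raf pathway genes and 0 of 7 repressed genes, beside the 8.09% of all genes.

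Of 10 genes known to be repressed by Myc, 5 were above the threshold in N18, 5 in BV2 and 3 in AtT20, with 58.6%, 56.0% and 36.9% of all genes above it. In N18 3 were higher and 4 lower than in BV2, beside 19.0% and 21.9% of all features, with a median of -0.09 against -0.06. The split was 2 and 3 without normalization and 4 and 3 relative to the seminal proteins. The N-myc downstream genes went apart, Ndrg2 being higher in N18 (1.22 ± 0.18) and Ndrg1 lower (-1.75 ± 0.21), each in all 3 scalings. Ndrg1 was below the threshold in N18, a fold of at least 2.1 in favour of BV2. The collagen Col1a1 (0.46 ± 0.14) was also higher in N18 in all 3, at least 1.3-fold with BV2 below its threshold, and Gas1 (0.27 ± 0.09), below the threshold in all 3 lines, did not pass without normalization. The cell cycle inhibitor Cdkn1a (-1.39 ± 0.16) and the heme oxygenase Hmox1 (-1.39 ± 0.15) were lower in N18 in all 3 scalings. Cdkn1a read 3.65 to 4.13 in N18, 4.11 to 5.08 in BV2 and -0.33 to -0.06 in AtT20.

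**Figure D4:**
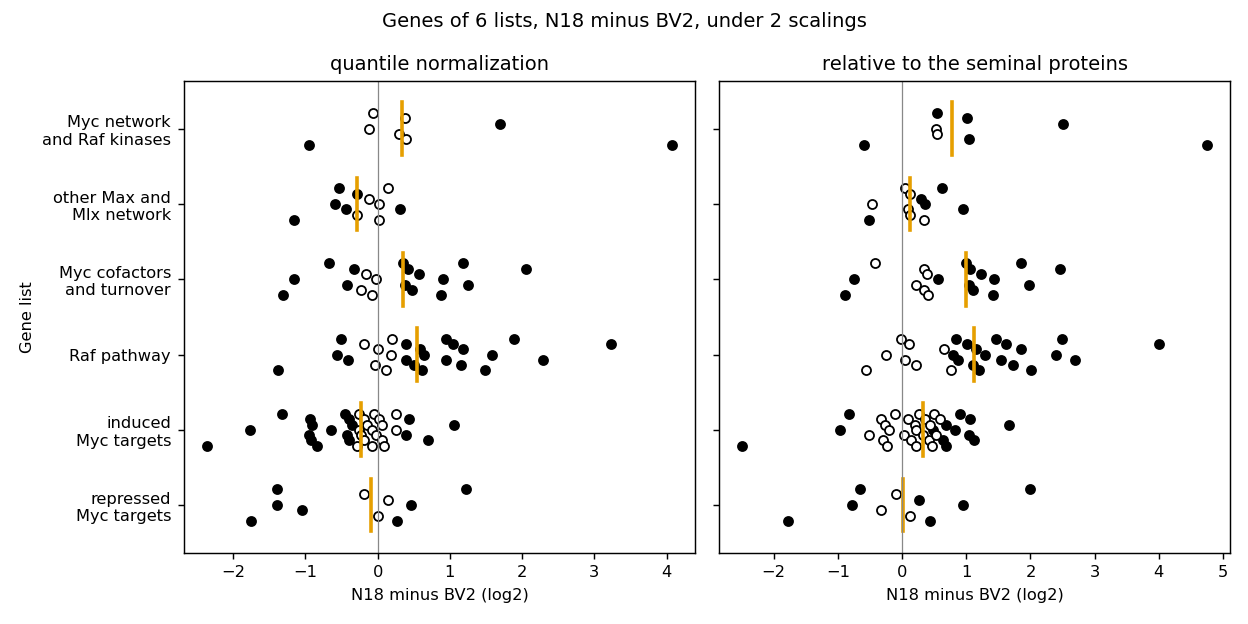
Differences of N18 minus BV2 (log2) for the genes of 6 lists after quantile normalization (left) and relative to the seminal proteins (right), with 1 point per gene, filled where the limma adjusted p was under 0.05, and an orange bar for the median of the list. The median of the induced Myc targets lay at -0.23 on the left and 0.32 on the right, and that of the Raf pathway was above 0 on both sides.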

How the data were processed

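RNA of 12 plates was hybridized to NimbleGen long-oligonucleotide arrays (MM8 design), 1 array per plate. The authors deposited log2 values, 1 for each of 72000 probes, made from Cy3 intensities. Neither background subtraction nor normalization between arrays is described. Probes were grouped into 25631 targets, of which 69.4% were matched to a symbol by transcript accession (RefSeq names, assembly GRCm38.p6, names only). The coordinates printed are those of the RefSeq promoter windows. Columns of values left unused numbered 0.

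The 3 probes of a gene were averaged on the linear scale and its targets were averaged. Levels and thresholds followed the study's rule. For differences, values were quantile normalized and fitted over all 12 arrays with limma (version 3.58.1, R 4.3.3, eBayes with trend), with Benjamini-Hochberg adjustment at 0.05 over 25128 features or 72000 probes. The fit was tested on simulated data. Intervals are 95% intervals of limma. A fold against a line below its threshold is a lower bound, set from that threshold on each plate and taken as the lowest over the 3 scalings. It comes from plate means and leaves out the spread between plates. Figures were drawn in matplotlib 3.10.9.

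Named genes were the members, the other genes of the Max and Mlx network, Ksr1, at most 3 genes per direction of each further list by N18 minus BV2, the 3 genes most like Myc and Mycn, and the markers, and some results under this rule are not reported here. The members and lists were chosen with earlier results of these data known. Alternatives covered scaling, background, probe summary, controls, threshold, filter, arrays in the fit, the replicate block and leaving out each plate. Precision is limited by 4 arrays per line. The slide of each array is not given in the sources used here, and slide effects were not tested. Plates of a line are separate cultures of the same line, and p-values measure the spread between them. That spread is pooled over all lines in the fit, so SEs, intervals and p-values of N18 minus BV2 also carry the spread of AtT20. After quantile normalization the SD of each member but Max was largest in AtT20. For Mxi1 it was 0.41 there, against 0.14 in BV2 and 0.18 in N18. For Max it was largest in BV2 (0.42).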

Additional observations from a re-analysis of the deposited data

How the results depend on the processing

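Of 765 values recomputed for single genes, 713 kept their call or lack of one, 23 fell short of the threshold, 21 newly passed it and 8 reversed, and the signs of Mnt and Araf between N18 and BV2, which did not pass, turned with the scaling. The number of genes above the threshold in AtT20 went from 7 to 4 with olfactory receptor genes as controls, and stayed at 5 in BV2 and 7 in N18 under every alternative run. The 3 genes that passed between N18 and BV2 became 6 without normalization, 6 relative to the seminal proteins and 5 when 8 arrays alone were fitted, those of these lines, and leaving out a plate gave 3 to 4. The 6 other network genes that passed became 3 without normalization. Relative to the seminal proteins, BV2 minus AtT20 reversed for Mxi1 (0.84) and Mnt (0.87), and N18 minus AtT20 for Mycl (0.22), Mxd1 (1.00) and Mnt (1.42), and without normalization the latter was 0.028 for Mnt. Mxi1 in BV2 minus AtT20 also reversed with the mean of log2 probes (0.75) and the median of the probes (1.59). The cause of these changes was not tested.

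The deviations of plates with the same number had correlations of -0.11 to 0.32, over 0.1 in 3 of 12 pairs. Whether the numbers pair the samples cannot be told from these correlations, since the slide of each array is not given. With the number as a replicate block, 4 genes passed between N18 and BV2, Mxi1 among them (adjusted p = 0.0452), and 6 and 7 in the comparisons with AtT20, as before. Leaving out a plate gave 5 to 7 genes for BV2 minus AtT20 and 7 for N18 minus AtT20. Myc and Mycn kept their calls between N18 and BV2 under all 22 alternatives, and Mxd1 did as well. Signal near the seminal proteins limits what can be said of Mycl in each line and of Myc and Mycn in BV2, and 4 plates per line limit differences within the stated intervals.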
